A study of Mus musculus with 12 samples.

Results

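The genes described here are the 10 named members of the pathway that makes and desaturates fatty acids: Srebf1, Fasn, Acaca, Acly, Acss2, Scd1, Scd2, Elovl6, Fads1 and Fads2. They were listed by symbol, as the gene of the transcription factor SREBP1 and genes counted among its targets; the rule uses no measured value, though the list was drawn up with earlier results of these data known. All 10 were found among the 24619 gene symbols of the count table, and all 10 were among the 14400 genes that passed the filter on low counts.

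Messenger RNA was sequenced from 12 libraries labelled as primary mouse cardiac fibroblasts, the matrix-forming cells of the heart, in 4 groups of 3. Every culture was starved for 12 h and then given conditioned medium for 24 h, that is, medium already used by lentivirus-infected adipocytes. Serum is listed at 10% for all 12 libraries. VEC_CM received medium from adipocytes with a vector virus, and OE_CM medium from adipocytes with a virus overexpressing the human microRNA hsa-miR-548ay. TGF_VEC_CM and TGF_KD_CM were treated with TGF-beta1, the cytokine that drives fibroblasts toward a matrix-secreting state, together with medium from vector adipocytes or from adipocytes with a virus inhibiting the microRNA. The fibroblasts of all 4 groups thus received adipocyte medium, and none was given plain medium. The labels give no age, sex or strain of the mice. They also do not say whether a group's 3 libraries were separate cultures, so the p-values may reflect technical spread alone. Groups follow the sample titles, because 2 of 3 treatment labels in OE_CM, and in TGF_KD_CM, name a microRNA of another number.

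Fatty acid synthesis starts from cytosolic acetyl-CoA, which ATP citrate lyase (Acly) makes from citrate and acetyl-CoA synthetase (Acss2) makes from acetate. Acetyl-CoA carboxylase (Acaca) converts it to malonyl-CoA, fatty acid synthase (Fasn) builds palmitate, Elovl6 lengthens it, and the stearoyl-CoA desaturases Scd1 and Scd2 put in the first double bond. Fads1 and Fads2 are the delta-5 and delta-6 desaturases that act on polyunsaturated fatty acids taken up from outside. Srebf1 encodes SREBP1, a membrane-bound factor that is released by proteolysis when SCAP escorts it out of the endoplasmic reticulum, and the INSIG proteins hold it back.

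Library totals lay between 33379207 and 37226153 counts, which puts the floor of 3 counts at 0.0939 CPM or lower. CPM are counts divided by library size, here after TMM scaling for library composition. Among 9 fibroblast markers in the table, Col1a1, Col1a2 and Vim were abundant, with group means of at least 1303, 4377 and 1764 CPM. Ddr2 (at least 418.9 CPM), Pdgfra (96.0 CPM) and Col3a1 (89.6 CPM) were also well expressed. Other markers were nearly absent: Lum was at or under the floor in all 4 groups, Dcn had at most 10 counts in any library and Thy1 at most 18. The markers thus matched the label only in part. Adipocyte markers summed to between 97.7 and 279 CPM in a library, most of it Fabp4, whereas Adipoq had at most 27 counts and Plin1 at most 17. Because these are bulk samples, a change in the share of a cell type and a change in RNA per cell cannot be told apart.

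Per length of transcript, Scd2 was the highest of the 10 genes in every group. Its level in VEC_CM was 209 ± 16.2 FPKM (the deposited values per transcript length and library size; SD, n = 3), above Scd1 at 78.9 ± 5.53, Fasn at 71.9 ± 0.931 and Srebf1 at 60.2 ± 1.63 FPKM. Fads1 at 52.2 ± 1.59, Acly at 44.6 ± 1.09, Elovl6 at 20.1 ± 0.967 and Acaca at 13.5 ± 0.411 FPKM followed. Acss2 was far lower at 4.73 ± 0.44 FPKM, and Fads2 was barely detected at 0.173 ± 0.0395 FPKM. No 2 neighbours in this order overlapped in their libraries' FPKM in VEC_CM. In OE_CM, Fasn stood above Scd1, and the ranges of Srebf1 and Fads1 overlapped. In TGF_VEC_CM the ranges of Scd1 and Fasn, of Fads1 and Srebf1, and of Acaca and Elovl6 overlapped, so those pairs had no order. Summed over the 10 genes, the level in a library was 534 to 587 FPKM for VEC_CM and 472 to 512 FPKM for OE_CM. With TGF-beta1 it was 266 to 274 FPKM for TGF_VEC_CM and 257 to 263 FPKM for TGF_KD_CM. FPKM are not TMM-scaled, so small differences between groups in these sums depend on the scaling. Acly, for example, was lower in OE_CM than in VEC_CM by FPKM (43.4 against 44.6) but not by CPM (358 against 349).

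Of the 10 genes, 4 lie on chromosome 11 of GRCm38 (Srebf1 at 60199084 to 60224186, Acaca at 84129635 to 84401651, Acly at 100476352 to 100528000 and Fasn at 120805958 to 120825166). Scd2 (44293676 to 44306864) and Scd1 (44394450 to 44407709) are neighbours on chromosome 19, where Fads2 (10062765 to 10101503) and Fads1 (10182877 to 10196874) also lie. Acss2 is on chromosome 2 (155518043 to 155562743) and Elovl6 on chromosome 3 (129532386 to 129638495). RefSeq windows of 300 bases across transcript starts (GRCm38.p6) were at hand for 7 of the 10 genes, with 3 starts for Srebf1 and so 9 windows. Those of Srebf1, Fasn and Acaca (chr11:84195188-84195487) lie inside the gene spans above, so the outermost starts of these genes were not searched. Windows of 3 genes are shown because their transcripts took different courses: the factor Srebf1 (start farthest downstream, chr11:60210422-60210721, minus strand), its classical target Fasn (chr11:120824498-120824797, minus strand) and Acss2 (chr2:155517793-155518092, plus strand). Capitals mark CCAAT, the box bound by NF-Y, and GGGCGG, the GC box bound by SP1, on either strand.
Srebf1: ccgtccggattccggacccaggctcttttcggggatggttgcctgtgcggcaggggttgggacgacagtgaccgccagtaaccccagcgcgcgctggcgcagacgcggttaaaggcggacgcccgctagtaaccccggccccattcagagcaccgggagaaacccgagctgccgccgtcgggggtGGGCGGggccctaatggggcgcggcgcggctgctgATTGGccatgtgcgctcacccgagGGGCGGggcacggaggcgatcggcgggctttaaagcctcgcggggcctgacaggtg
Fasn: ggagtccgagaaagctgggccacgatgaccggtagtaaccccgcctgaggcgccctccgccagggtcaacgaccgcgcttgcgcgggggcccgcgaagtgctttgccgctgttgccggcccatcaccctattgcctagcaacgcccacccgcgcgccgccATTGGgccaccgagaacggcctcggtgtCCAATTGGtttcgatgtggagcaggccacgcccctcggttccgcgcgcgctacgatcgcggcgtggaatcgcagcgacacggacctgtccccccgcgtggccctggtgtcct
Acss2: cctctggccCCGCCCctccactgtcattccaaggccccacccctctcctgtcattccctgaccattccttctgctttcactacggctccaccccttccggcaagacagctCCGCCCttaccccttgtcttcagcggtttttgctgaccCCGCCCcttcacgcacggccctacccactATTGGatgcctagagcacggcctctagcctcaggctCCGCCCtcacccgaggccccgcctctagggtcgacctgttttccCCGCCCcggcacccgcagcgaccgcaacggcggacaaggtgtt
The CCAAT letters occurred in 5 of the 9 windows, those of Acly, Acss2, Fasn and 2 of Srebf1, against 37.4% of 32851 windows of this length. GGGCGG occurred in 5 windows, of Acly, Acss2, Fads2 and 2 of Srebf1, against 35.7%. The sterol regulatory element letters TCACNCCAC (1.24% of all windows), the looser CACNCCAC (6.24%) and CACCCCAC (2.87%), the E-box CACGTG (7.15%) and TCATGTGA (0.986%) occurred in none of the 9. CATGTG (14.2% of all windows) occurred in 1 window of Srebf1. All 8 motifs searched are given; CACNCCAC lies within TCACNCCAC and covers CACCCCAC, and CATGTG lies within TCATGTGA. A match of letters is a description of the window only.

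Most of these genes differed clearly between the 2 vector groups. With TGF-beta1, TGF_VEC_CM had less mRNA than VEC_CM for Srebf1, Acly, Acaca, Fasn, Elovl6, Scd1, Scd2 and Fads1. In all, 8 of the 10 genes fell and 2, Acss2 and Fads2, rose (edgeR quasi-likelihood test, adjusted p under 0.05 over 14400 genes). Among all genes tested 29.4% fell and 28.9% rose. The median log2 change was -0.77 over the 10 genes and 0.00405 over all genes. The CPM of all 10 genes did not overlap between the 2 groups, as was the case for 62.8% of all genes tested. The series' design text places these groups in separate parts of the study, so TGF-beta1 and the study part cannot be told apart.

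The factor gene Srebf1 stood at 285, 302 and 295 CPM in the VEC_CM libraries and at 149, 154 and 152 CPM in TGF_VEC_CM. Every TGF_VEC_CM library lay far below every VEC_CM library, a 1.94-fold fall (log2 change -0.96, SE 0.0333, adjusted p = 9.45e-26).

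Acly, the citrate-cleaving enzyme, had 340, 359 and 348 CPM in VEC_CM and 206, 202 and 211 CPM in TGF_VEC_CM. Its log2 change was -0.76 (SE 0.0271, adjusted p = 1.21e-34), with the 2 groups well apart. Acss2, the acetate-using enzyme, went the other way, from 12.0, 14.5 and 13.6 CPM to 16.1, 16.5 and 15.3 CPM. The rise of Acss2 was small (log2 change 0.26, SE 0.0874, adjusted p = 0.00939) and depended on VEC_CM replicate 1, the lowest library. Without that library it was 0.20 (adjusted p = 0.0773), and over all alternatives run the adjusted p lay between 0.00182 and 0.62. Acaca and Fasn carry out the committed step and the chain building. Acaca had 140, 149 and 141 CPM against 105, 110 and 104 CPM (log2 change -0.43, SE 0.0348, adjusted p = 9.19e-17). Fasn had 736, 751 and 757 CPM against 436, 430 and 439 CPM (log2 change -0.78, SE 0.0243, adjusted p = 5.45e-38). For both genes the libraries of a group lay close together and the groups well apart.

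Among the enzymes that modify the finished chain, Scd2 fell most. Scd2 had 1074, 1240 and 1094 CPM in VEC_CM and 334, 345 and 324 CPM in TGF_VEC_CM. This was a 3.40-fold fall (log2 change -1.76, SE 0.0652, adjusted p = 1.28e-08), the 49th lowest log2 change of the 14400 genes. Its neighbour Scd1 fell less, from 360, 412 and 369 CPM to 210, 214 and 202 CPM (log2 change -0.87, SE 0.0534, adjusted p = 8.79e-08). Elovl6 fell 2.02-fold: it had 114, 126 and 117 CPM in VEC_CM and 61.1, 59.4 and 56.6 CPM in TGF_VEC_CM (log2 change -1.01, SE 0.0409, adjusted p = 3.11e-31). Scd2 and Elovl6 were the members that fell at least 2-fold, as 1.96% of all genes did. Fads1 fell from 180, 191 and 181 CPM to 109, 113 and 113 CPM (log2 change -0.72, SE 0.0308, adjusted p = 1.26e-30). Fads2 rose 2.26-fold (log2 change 1.18, SE 0.371, adjusted p = 0.0052), but on 17, 15 and 23 counts in VEC_CM against 46, 34 and 44 counts in TGF_VEC_CM, so its size is poorly known (95% interval 0.434 to 1.92). A rise of at least 2-fold was called for 7.27% of all genes.

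Marker lists moved in this comparison as well. From VEC_CM to TGF_VEC_CM the adipocyte sum went from 265 to 279 CPM to 187 to 199 CPM, with Fabp4 lower and Cidec and Cidea higher of 6 tested and Lep at or under the floor. The leukocyte sum went from 38.4 to 41.4 CPM to 30.8 to 33.4 CPM, with 3 of 9 lower and Cd3e at or under the floor. The cardiomyocyte sum went from 70.0 to 75.2 CPM to 105 to 116 CPM, with Tnnt2 and Ryr2 higher and Tnni3 and Actc1 at or under the floor. The smooth muscle and pericyte sum went from 598 to 617 CPM to 820 to 844 CPM, with 1 of 3 higher, 1 lower and Kcnj8 at or under the floor. The endothelial sum went from 0.547 to 0.71 CPM to 1.17 to 1.8 CPM, with Pecam1 and Vwf higher on at most 28 counts and Cdh5 and Emcn at or under the floor. Their part in the changes of the 10 genes was not tested.

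**Figure D1:**
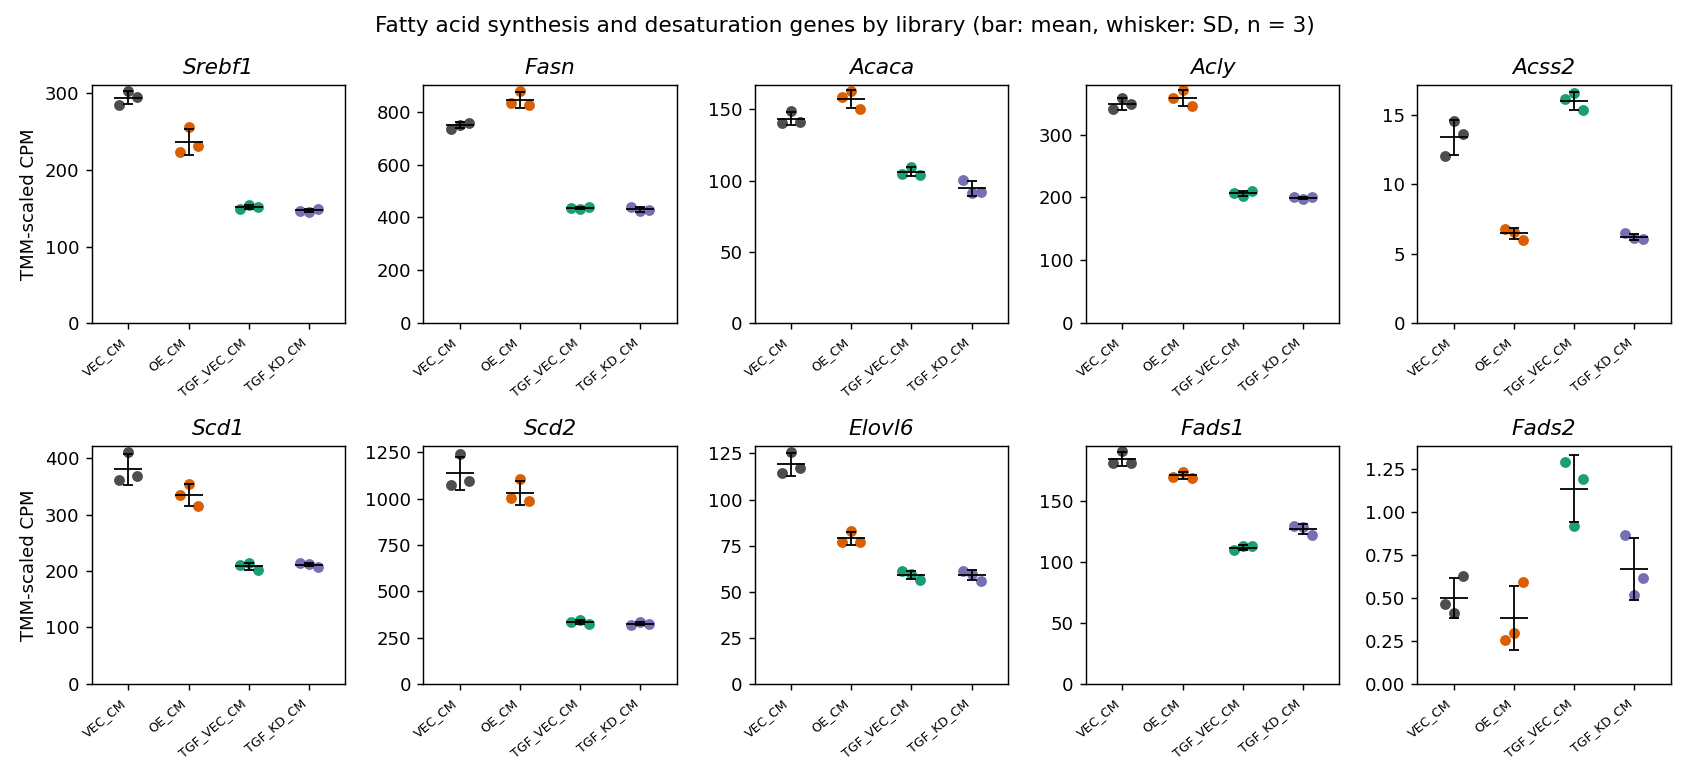
CPM (TMM-scaled) of the 10 genes in each of the 12 libraries, with 1 panel per gene, points for libraries, and bars and whiskers for the mean and SD of 3. In 8 panels the TGF_VEC_CM and TGF_KD_CM points lie below those of VEC_CM, whereas Acss2 is low in OE_CM and TGF_KD_CM, and Fads2 stays near 1 CPM or below.

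Medium from adipocytes overexpressing the microRNA gave mixed changes, with log2 changes nearer 0 than between the vector groups for every member except Acss2. In OE_CM against VEC_CM, Acss2, Elovl6, Srebf1, Scd1 and Fads1 fell, Fasn and Acaca rose, and Acly, Scd2 and Fads2 did not pass the test. These 5 lower and 2 higher genes stand against 25.7% lower and 28.4% higher among all genes tested. The median log2 change was -0.16 over the 10 genes and -0.00812 over all genes. With upper-quartile scaling the split of all calls moved from 4083 higher and 3695 lower to 2798 and 5059, so small rises in this comparison depend on the scaling.

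Acss2 changed most. Its OE_CM libraries had 6.80, 6.55 and 6.01 CPM, below every VEC_CM library, a 2.07-fold fall (log2 change -1.05, SE 0.0971, adjusted p = 7.3e-15). Of all genes tested, 4.92% fell at least 2-fold. Acly, the other source of acetyl-CoA, had 358, 370 and 345 CPM in OE_CM and overlapped VEC_CM (log2 change 0.04, 95% interval -0.018 to 0.0882, adjusted p = 0.271); its sign turned in 3 of 15 alternatives. Srebf1 had 223, 255 and 231 CPM, all below VEC_CM (log2 change -0.31, SE 0.0326, adjusted p = 6.59e-11). Fasn, by contrast, was higher in each OE_CM library, at 831, 878 and 824 CPM (log2 change 0.17, SE 0.024, adjusted p = 3.96e-09). With upper-quartile scaling the Fasn change was 0.09 (adjusted p = 0.000901). Fasn passed in 14 of 15 alternatives and missed only the test against a change of 1.2-fold given below (1.72e-11 to 1 over all alternatives). Acaca had 158, 163 and 150 CPM in OE_CM (log2 change 0.13, SE 0.0342, adjusted p = 0.000696), but with upper-quartile scaling the change was 0.05 (adjusted p = 0.256, and between 0.000106 and 1 over all alternatives). The transcript of the factor and that of its classical target thus differed in the sign of their change.

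The elongase Elovl6 had 77.1, 83.1 and 76.8 CPM in OE_CM, well below VEC_CM (log2 change -0.59, SE 0.0401, adjusted p = 2.45e-20). Scd1 had 334, 354 and 316 CPM in OE_CM, just under the lowest VEC_CM library (log2 change -0.18, SE 0.0524, adjusted p = 0.0125). Scd1 passed in 13 of 15 alternatives. That call was lost when the 2 groups were fitted alone (adjusted p = 0.0805) and against a change of 1.2-fold (4.32e-12 to 1 over all alternatives). Scd2 had 1003, 1108 and 986 CPM, overlapping VEC_CM (log2 change -0.14, 95% interval -0.281 to 0.00545, adjusted p = 0.0974). It passed in 6 of 15 alternatives, among them the fit without OE_CM replicate 2 (-0.19, adjusted p = 0.0254, with a range of 2.95e-07 to 1 over all). Replicate 2 had the highest Scd2 of its group in each of the 4 groups. Fads1 was lower by a small step, at 169, 174 and 169 CPM (log2 change -0.11, SE 0.0301, adjusted p = 0.00145). Fads2 had 9 to 19 counts in OE_CM, and its interval of -1.25 to 0.452 on the log2 scale left its direction undetermined at this depth. Against a change of 1.2-fold, a test added after the data were seen, Acss2 and Elovl6 passed as lower, as 11.6% of all genes did, and no other member passed.

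Markers of other cell types also differed between these groups. The 9 adipocyte markers summed to 265 to 279 CPM in a VEC_CM library and 97.7 to 102 CPM in an OE_CM library. Of the 6 tested, Fabp4 fell (260.5 to 85.7 CPM) and Cidec rose (7.92 to 13.2 CPM), while Lep was at or under the floor in both groups. The 10 leukocyte markers summed to 38.4 to 41.4 and 17.3 to 31.3 CPM, with 2 of 9 lower and Cd3e at or under the floor. The 6 cardiomyocyte markers summed to 70.0 to 75.2 and 163 to 167 CPM, with Tnnt2 higher and Myh6, Tnni3 and Actc1 at or under the floor. The 5 smooth muscle and pericyte markers summed to 598 to 617 and 896 to 902 CPM, with 1 of 3 higher, 1 lower and Myh11 and Kcnj8 at or under the floor. The 6 endothelial markers summed to at most 0.71 CPM in either group. The part of these markers in the differences of the 10 genes was not tested.

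In the presence of TGF-beta1, medium from adipocytes with the inhibiting virus changed Acss2 by more than 2-fold and 2 other genes by less. Acss2 and Acaca fell, Fads1 rose and 7 genes did not pass the test, against 20.2% lower and 23% higher among all genes tested. The median log2 change was -0.04 over the 10 genes and -0.000262 over all genes.

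Acss2 had 6.45, 6.16 and 6.04 CPM in TGF_KD_CM against 16.1, 16.5 and 15.3 CPM in TGF_VEC_CM. This 2.57-fold fall (log2 change -1.36, SE 0.095, adjusted p = 1.15e-19) was the 209th lowest log2 change of 14400, and 2.53% of all genes fell at least 2-fold. Acss2 was therefore lower with the overexpressing and with the inhibiting medium, each against its own vector group, and these 2 comparisons share no library. Its exons overlap those of Gss on the opposite strand, and no source used here gives the strand setting of the counting. Gss, which encodes glutathione synthetase, had group means of 46.5 to 53.7 CPM, above those of Acss2. Its log2 changes were 0.21 (adjusted p = 0.000117) in OE_CM and 0.04 (adjusted p = 0.541) in TGF_KD_CM. The same limit holds for Srebf1, whose exons overlap those of Rai1 (group means of 108 to 120 CPM) on the opposite strand. Rai1 had log2 changes of 0.05 (adjusted p = 0.198) in OE_CM and -0.09 (adjusted p = 0.0278) in TGF_KD_CM. Acaca had 100, 91.0 and 92.1 CPM in TGF_KD_CM, below each TGF_VEC_CM library (log2 change -0.17, SE 0.0358, adjusted p = 7e-05). Of the 50-base segments of Acaca transcripts 30.4% also occur in other genes, chiefly Gm5182, so its counts are less certain than those of Fasn, Acly and Fads1, which share 0%. Fads1 had 129, 129 and 122 CPM against 109, 113 and 113 CPM (log2 change 0.18, SE 0.0314, adjusted p = 1.95e-06).

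The remaining genes did not pass the test, and their 95% intervals included 0 except for Fads2. Srebf1 had 147, 145 and 150 CPM in TGF_KD_CM (log2 change -0.04, 95% interval -0.114 to 0.0244). Fasn had 440, 424 and 426 CPM (log2 change -0.02, 95% interval -0.0644 to 0.0335), and Elovl6 had 61.5, 59.5 and 56.1 CPM (log2 change 0.00, 95% interval -0.0857 to 0.0856). The desaturases Scd1, at 214, 212 and 208 CPM, and Scd2, at 317, 332 and 324 CPM, overlapped the TGF_VEC_CM libraries. Their intervals were -0.103 to 0.139 and -0.193 to 0.106. Acly had 200, 197 and 201 CPM, all just under TGF_VEC_CM, without passing the test (log2 change -0.05, SE 0.0276, 95% interval -0.105 to 0.00522, adjusted p = 0.142). It passed in 4 of 15 alternatives: with upper-quartile factors, with limma on FPKM at either pseudocount, and without TGF_VEC_CM replicate 2 (-0.08, adjusted p = 0.0297, with a range of 0.021 to 1 over all alternatives). Fads2 had 32, 19 and 23 counts against 46, 34 and 44 (log2 change -0.76, 95% interval -1.48 to -0.0491, adjusted p = 0.0781). It passed in 2 of 12 alternatives, among them the fit without TGF_KD_CM replicate 1 (-1.01, adjusted p = 0.0477, with a range of 0.0477 to 0.315 over all alternatives).

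Between the same 2 groups, TGF_VEC_CM and TGF_KD_CM, the adipocyte sum went from 187 to 199 CPM to 153 to 163 CPM, with Fabp4 lower and Cidec higher of 6 tested and Lep at or under the floor. The leukocyte sum went from 30.8 to 33.4 CPM to 24.3 to 26.8 CPM, with 2 of 9 lower and Cd3e at or under the floor. The cardiomyocyte sum went from 105 to 116 CPM to 97.2 to 104 CPM, with Tnnt2 lower and Tnni3 and Actc1 at or under the floor. The smooth muscle and pericyte sum went from 820 to 844 CPM to 636 to 649 CPM, with Cspg4 lower and Kcnj8 at or under the floor. The endothelial sums overlapped, with neither of 2 tested markers called and Emcn at or under the floor. The part of these markers in the changes of Acss2, Acaca and Fads1 was not tested.

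**Figure D2:**
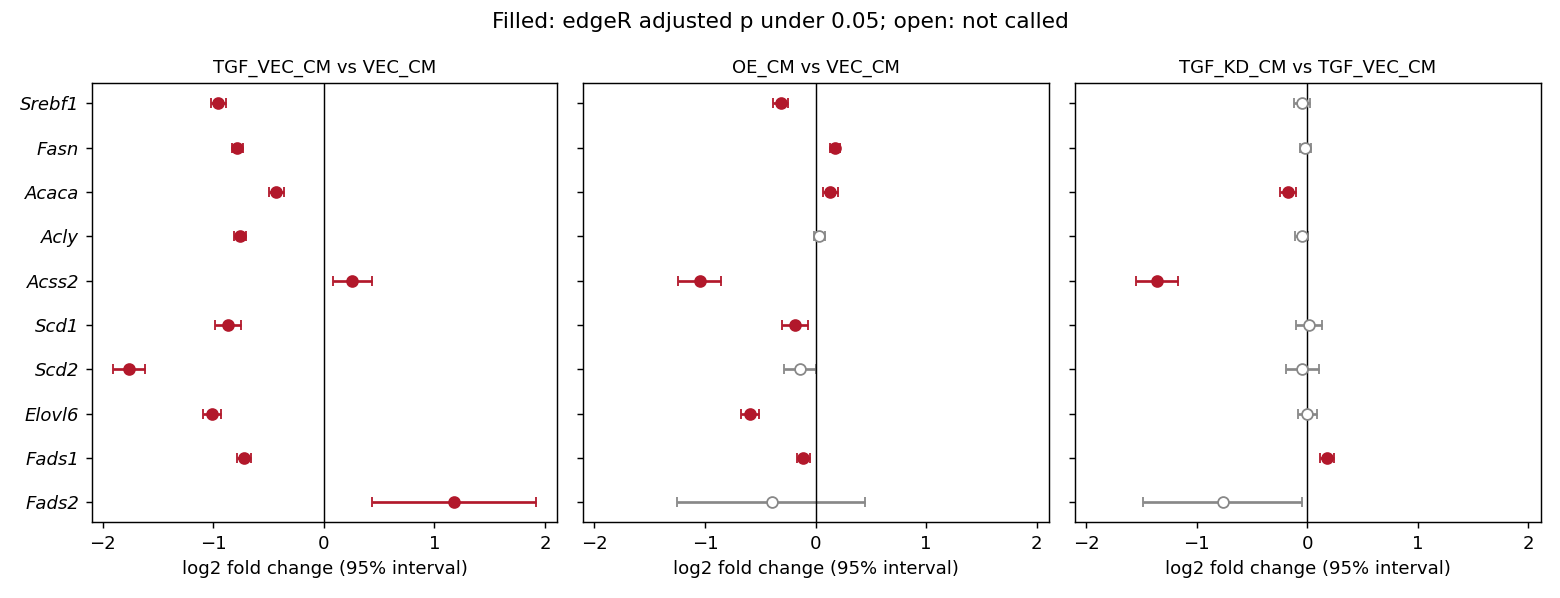
Log2 fold change of each gene in 3 comparisons with its 95% interval, filled where the adjusted p was under 0.05. In the first panel 8 of 10 genes lie below 0, in the second Acss2 (-1.05) and Elovl6 (-0.59) stand out, and in the third Acss2 (-1.36) does.

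The difference between the overexpression effect and the inhibition effect was tested as an interaction. For 7 of the 10 genes the 2 effects differed, 3 with a higher and 4 with a lower overexpression effect, against 25.6% and 26.8% of all genes tested. The difference was -0.59 (SE 0.0587) on the log2 scale for Elovl6, which fell in OE_CM and had a change of 0.00 in TGF_KD_CM. It was 0.30 (SE 0.0495) for Acaca, which rose in one and fell in the other, and -0.29 (SE 0.0435) for Fads1, which did the reverse. Acly missed the threshold at 0.09 (adjusted p = 0.0563), and passed without any one of VEC_CM replicates 2 and 3, OE_CM replicates 1 and 3, TGF_VEC_CM replicates 1 and 2 and TGF_KD_CM replicates 1 and 3 (0.06 to 0.13 over all single omissions, adjusted p between 0.005 and 1 over all alternatives).

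Ratios of 2 members within a library, chosen after the values had been seen and given without a test, show how the balance between their transcripts moved. In FPKM, Scd2 was 2.64, 2.67 and 2.63 times Scd1 in VEC_CM and 2.66, 2.77 and 2.77 times in OE_CM. In TGF_VEC_CM it was 1.41, 1.43 and 1.42 times and in TGF_KD_CM 1.31, 1.39 and 1.38 times Scd1, so the ratio was low wherever TGF-beta1 was given. Acss2 as a percentage of Acly was 9.78, 11.2 and 10.8 in VEC_CM and 5.27, 4.90 and 4.82 in OE_CM. With TGF-beta1 it was 21.6, 22.7 and 20.1 in TGF_VEC_CM and 8.93, 8.65 and 8.34 in TGF_KD_CM. The Acss2 transcript was thus highest relative to that of Acly in TGF_VEC_CM and lowest in OE_CM. Scd1 relative to Fasn was 1.06, 1.18 and 1.05 in VEC_CM, above 0.868, 0.870 and 0.827 in OE_CM, while it was 1.04, 1.07 and 0.994 in TGF_VEC_CM and 1.05, 1.08 and 1.05 in TGF_KD_CM.

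**Figure D3:**
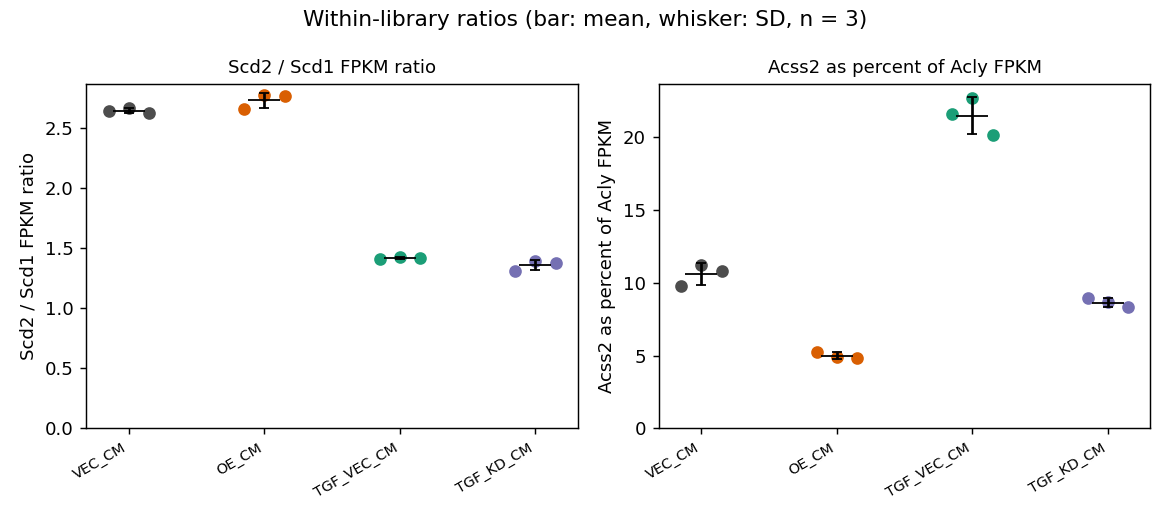
Within-library ratios of Scd2 to Scd1 (left) and of Acss2 to Acly in percent (right), both from FPKM, with points for libraries and bars and whiskers for mean and SD. The left panel falls from about 2.6 in VEC_CM to 1.4 in TGF_VEC_CM, and the right panel is highest in TGF_VEC_CM, at 20.1 to 22.7.

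The genes around the pathway were taken from lists chosen with earlier results of these data known. Over all genes tested, the share called was 28.9% higher and 29.4% lower with TGF-beta1, 28.4% and 25.7% in OE_CM, and 23% and 20.2% in TGF_KD_CM, and a list's count near these shares is no result about the list. Among 17 tested genes of SREBP control and related factors, 9 fell and 3 rose in TGF_VEC_CM against VEC_CM (median log2 change -0.15). Srebf2, the sterol-directed relative of Srebf1, had a log2 change of -1.78 (SE 0.0302) and Insig1, the retention factor and itself a SREBP target, -3.29 (SE 0.0518). Lpin1 and the liver X receptor gene Nr1h3, whose product activates Srebf1 transcription, also fell (-1.22 and -0.66). In OE_CM 6 of the 17 rose and 6 fell (median -0.04), near the shares over all genes. Lpin1 (-1.10), Insig2 (-0.57) and Nr1h3 (-0.43) were among those that fell. Fbxw7 (0.45), Mbtps2 (0.33) and Scap (0.25) were among those that rose. In TGF_KD_CM 10 rose and 2 fell (median 0.13), among them Insig1 at 0.89, Srebf2 at 0.48 and Nr1h3 at 0.47, whereas Srebf1 itself did not pass.

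A list of 14 tested genes holds suppliers of citrate, acetyl-CoA and NADPH and also accessory genes, among them the other carboxylase Acacb, the decarboxylase Mlycd and the mitochondrial synthesis genes Mcat, Oxsm and Mecr. Of these 14 genes, 9 fell and 2 rose with TGF-beta1 (median -0.31). They included the NADPH-making enzymes Idh1 (-1.63), Pgd (-0.63) and G6pdx (-0.49), the citrate carrier Slc25a1 (-0.94) and the acetoacetyl-CoA synthetase Aacs (-0.83). In OE_CM 8 fell and 2 rose (median -0.16), among them Acacb, whose product makes malonyl-CoA at mitochondria, at -1.37, Idh1 at -1.34 and Mlycd, whose product breaks malonyl-CoA down, at -1.14. Acacb and Mlycd supply neither acetyl-CoA for synthesis nor NADPH. In TGF_KD_CM 3 rose and 2 fell (median -0.03), with Idh1 at 0.92 and Pgd at 0.32. Idh1 thus fell in OE_CM and rose in TGF_KD_CM.

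Among 14 other elongases, desaturases and their electron carriers, 6 rose and 7 fell with TGF-beta1 (median -0.02). In OE_CM 8 rose and 3 fell (median 0.11), and in TGF_KD_CM 4 rose and 6 fell (median -0.04). Cyb5a, the cytochrome that passes electrons to the desaturases, had -1.35 with TGF-beta1, -1.80 in OE_CM and 0.75 in TGF_KD_CM. Fads3, a relative of Fads1 and Fads2, had 0.49, 0.60 and -0.19 in the same order. Of 18 genes of acyl activation and glycerolipid assembly, 5 rose and 7 fell with TGF-beta1 (median 0.03), 8 and 5 in OE_CM (0.04) and 6 and 3 in TGF_KD_CM (0.00). The acyl-CoA synthetases Acsl3 (-1.09), Acsl5 (-0.87) and Acsl1 (-0.61) fell with TGF-beta1, whereas Dgat2, which makes triglyceride, rose (1.24, SE 0.0743).

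The sterol pathway, directed by Srebf2, fell widely with TGF-beta1: 19 of 20 tested genes fell and none rose, against 29.4% lower among all genes (median -1.27). The synthesis enzymes Fdps and Cyp51 had -2.26 and -1.73. In OE_CM 10 fell and 2 rose (median -0.13), and in TGF_KD_CM 3 fell and 10 rose (median 0.08). Of 8 liver X receptor targets, 3 rose and 3 fell with TGF-beta1 (median 0.06), 2 rose and 5 fell in OE_CM (-0.47) and 2 rose and 3 fell in TGF_KD_CM (-0.12). Abca1, the cholesterol exporter, had 1.00, -1.65 and -0.60 in that order. Others on the list took other courses: Nr1h3 had -0.66, -0.43 and 0.47, and Apoe had -0.01, 0.15 and -0.16. The comparison with TGF-beta1 shares VEC_CM with the second comparison and TGF_VEC_CM with the third, so the values are given side by side only.

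**Figure D4:**
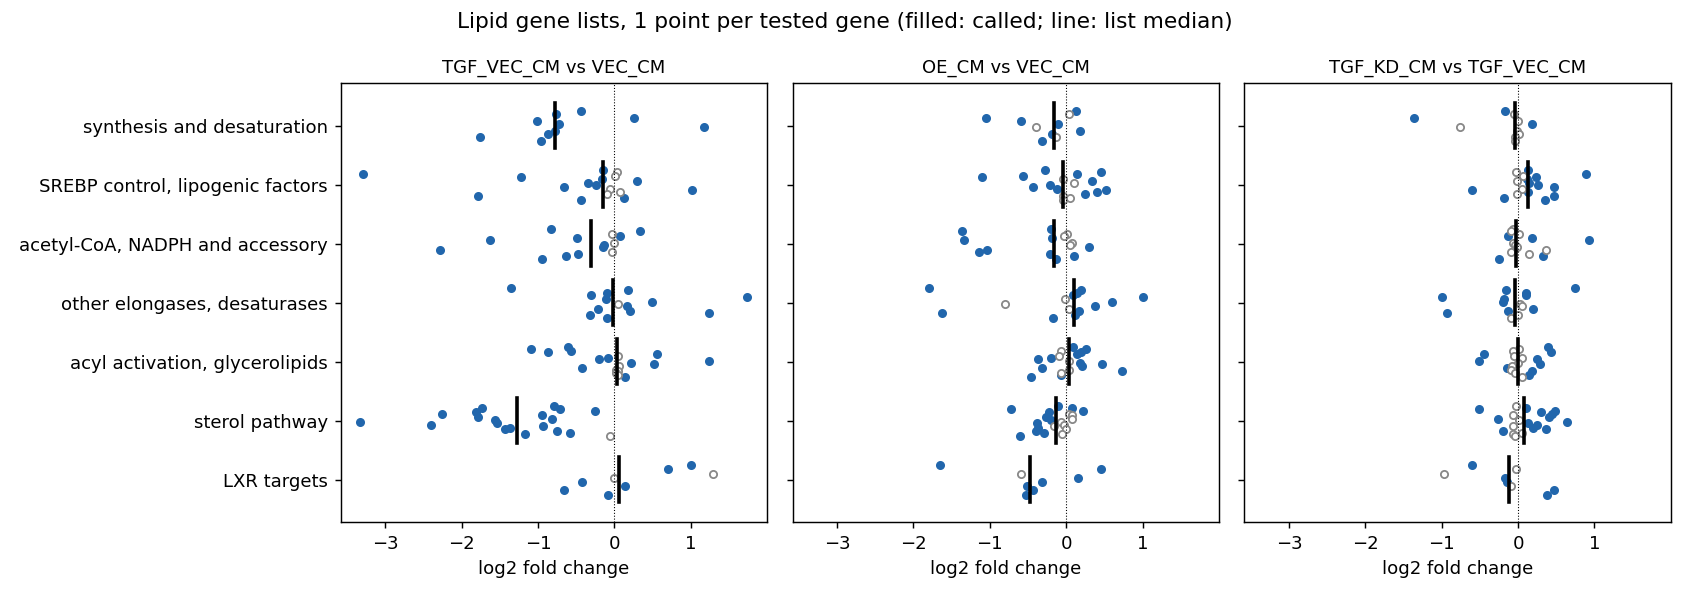
Log2 fold changes of tested genes in 7 lipid gene lists and 3 comparisons, 1 point per gene, filled where called, with a line at each list's median. The sterol list sits at a median of -1.27 in the first panel, and the synthesis and desaturation genes at -0.77.

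By the likeness of log2 CPM over the 12 libraries, among 9247 genes with a mean of at least 10 CPM, Srebf1 was nearest to Aacs (Pearson r = 0.991), Pcyt2, Loxl3, Scd1 and Lss. Fasn was nearest to Lmna (r = 0.997), Acsl3, Mcm2, Utp14b and Acly. Scd1 was nearest to Acat2 (r = 0.991), Scd2, Aacs, Idi1 and Lss. The libraries of a group share their medium and the TGF-beta1 treatment, so these values mostly describe the 4 group means. Between members, Srebf1 correlated with Scd1 at r = 0.987 and with Acss2 at r = 0.108 over the same 12 libraries.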

How the data were processed

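Per the labels' protocols, starved fibroblasts were exposed to conditioned medium, and libraries were made from total RNA with a SMARTER mRNA kit. The authors deposited whole-number counts per gene symbol, 1 column per library and not normalized. They also deposited FPKM values, which equal each count divided by the column total and 1 length per gene. Per the submitters' processing notes the genome build was GRCm38 (mm10). Which aligner, counter, strand setting and annotation were used is not given in the sources used here.

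The main test was that of edgeR 4.0.16 (R 4.3.3): filterByExpr kept 14400 genes and removed 10219, factors were TMM, and 1 robust quasi-likelihood model was fitted to 12 libraries with 4 group means. All p-values are two-sided and adjusted by Benjamini-Hochberg over 14400 genes (threshold 0.05). The common biological coefficient of variation was 0.0341. Totals of 33379207 to 37226153 counts set the precision, and floors cover counting error only. CPM is scaled by TMM; FPKM served for levels between genes. Correlations used log2 CPM with a prior count of 2. Alternatives were upper-quartile factors, DESeq2 1.42.0, other filters, fits to the compared groups alone, a replicate block, limma 3.58.1 on log2(FPKM + 1) or log2(FPKM + 0.1) with FPKM of at least 0.5 in 3 libraries, and each library left out. A test against 1.2-fold (glmTreat) was added after the data were seen. It counts among the alternatives, but it asks for a change beyond 1.2-fold, so it can miss a change that the other settings call. The procedure was tested on simulated data. The members, lists and motifs were chosen with earlier results of these data known. Named genes are the 10 members, up to 4 called genes of lowest p per list and comparison, shown beside the same genes in the other comparisons, and the 5 genes most like Srebf1, Fasn and Scd1; other names were chosen after their values were seen, and 1 gene named by the rule is not reported here. Promoter sequences and positions are from RefSeq, GRCm38.p6; overlaps and shared 50-base segments were counted on the GENCODE annotation of the same build. Replicate libraries of a group differed by more than sampling noise, with a chi-square of 2.93 to 4.29 per gene.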

Additional observations from a re-analysis of the deposited data

Results flagged for a closer look

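For 7 genes the change in OE_CM against VEC_CM differed from the change in TGF_KD_CM against TGF_VEC_CM, by edgeR's test of the difference itself. The differences, on the log2 scale, were -0.591 for Elovl6 (adjusted p = 1.57e-13), -0.291 for Fads1 (4.06e-08), 0.303 for Acaca (3.9e-07), 0.19 for Fasn (2.65e-06) and -0.269 for Srebf1 (5.8e-06). These 5 passed under every alternative except the test against 1.2-fold, which left only Elovl6. Acss2, which fell in both comparisons, had 0.313 (adjusted p = 0.049), and it missed the threshold in 11 of 20 alternatives: with upper-quartile factors, DESeq2, no filter and against 1.2-fold, and without VEC_CM replicate 1 (0.25), OE_CM replicate 1 (0.28) or 2 (0.30), TGF_VEC_CM replicate 1 (0.32) or 2 (0.30), or TGF_KD_CM replicate 2 (0.32) or 3 (0.30), with adjusted p between 0.0238 and 0.365 over all alternatives. Scd1 had -0.202 (adjusted p = 0.0453) and missed it in 8 of 20 alternatives: without OE_CM replicate 1 (-0.19), TGF_VEC_CM replicate 1 (-0.20), 2 (-0.21) or 3 (-0.17), TGF_KD_CM replicate 1 (-0.18), 2 (-0.19) or 3 (-0.20), and against 1.2-fold, with adjusted p between 6.06e-08 and 0.848 over all alternatives. The 2 comparisons also differ in TGF-beta1 and in the part of the study, which cannot be told apart from the media.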

How the results depend on the processing

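With TGF-beta1, 8 members were lower under each alternative run. The higher count of 2 was 1 with a filter of 1 CPM in 3 libraries and with limma on FPKM at either pseudocount, where Fads2 was filtered out, and 1 against 1.2-fold; leaving out single libraries gave 1 to 2. In OE_CM the 2 higher members became 1 with upper-quartile factors and with limma at either pseudocount, and 0 against 1.2-fold, where 2 were lower; single omissions gave 2 to 2 higher and 5 to 6 lower. In TGF_KD_CM 0 were higher and 1 lower against 1.2-fold, and for the difference of effects 0 higher and 1 lower. For those, single omissions gave 1 to 1 and 2 to 3, and 2 to 4 and 3 to 4. No called member changed sign. Same-numbered libraries deviated together only weakly over all genes tested. For VEC_CM and OE_CM r was 0.0193 to 0.0436, and 6 of 6 libraries correlated best with their own number. For the TGF-beta1 groups r was 0.000298 to 0.0301 with 4 of 6, and for VEC_CM and TGF_VEC_CM 0.00807 to 0.0417 with 5 of 6. The numbers were not taken as pairs, though an r over all genes cannot show whether single genes shared a replicate effect. Replicate 2 was the highest library in 4 of 4 groups for Scd2 and in 3 of 4 for Srebf1, Acaca, Scd1 and Fads1. For the other members it was the highest in at most 2. With the replicate block Scd2 passed in OE_CM (adjusted p = 2.95e-07) and, as did Acly, in the difference of effects (0.0121 and 0.0382), and 3 of 40 calls changed. The depth limits Fads2, with at most 46 counts.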
